A study of Mus musculus with 6 samples.

Results

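The CD200 receptor cluster of the mouse consists of 4 neighbouring immunoglobulin-type receptor genes, Cd200r1, Cd200r2, Cd200r3 and Cd200r4. It is described here with Cd200, the gene of the ligand of CD200R1. The 5 genes were picked by symbol from a table of 23841 gene identifiers, and all 5 were found. They were proposed with results of the comparison below already known, Cd200r1 and Cd200r2 being among its largest differences, so their own differences are given as a description without a p-value. RNA was sequenced from 2 populations sorted from kidneys of naive wild-type C57BL/6 mice, with 3 pools of each and with no treatment in either. Type 1 innate lymphoid cells (ILC1), lymphocytes that stay in tissue, were taken as CD49a-positive cells with low to intermediate CD49b. Conventional natural killer cells (cNK), circulating cytotoxic lymphocytes, were taken as cells high in CD49b. Both were NK1.1+NKp46+CD3-, and the sources used here give neither the age of the mice nor how many made up a pool. P-values therefore measure the spread between pools, which may be partly technical.

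CD200 is a membrane glycoprotein of endothelial cells, neurons, B cells and activated T cells that restrains the leukocytes it touches. CD200R1 binds it and signals through tyrosines of its cytoplasmic tail, which recruit the adaptors DOK2 and DOK1 and, through them, the Ras GTPase-activating protein RASA1 and the lipid phosphatase SHIP-1. The mouse paralogs CD200R3 and CD200R4 lack such a tail and pair with the activating adaptor DAP12, and CD200R3 is best known from basophils and mast cells. No signalling type is assigned to CD200R2 here, and none is read from its levels. Cd200r1 is also used as a surface marker that separates ILC1 from NK cells in liver.

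The libraries held 22633440 to 28327265 counts. Levels are given as CPM, counts scaled to 1000000 per library with edgeR's TMM factors, so that 1 count was worth 0.0342 to 0.0454 CPM. Itga1, which encodes CD49a, had a mean of 137 CPM in ILC1 against 11.2 in cNK, Itga2, which encodes CD49b, 16.6 and 107 CPM, and Ncr1, which encodes NKp46, 1461 and 1284 CPM, so each sorted population held the transcripts of its gate. Of 16144 genes that passed the low-count filter, edgeR called 657 higher in ILC1 and 273 higher in cNK at an adjusted p under 0.05, 5.76% in all.

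On GRCm38 the 4 receptor genes lie head to tail on the plus strand of chromosome 16 within 215.6 kb, in the order Cd200r1 (44765736 to 44794978), Cd200r4 (44811733 to 44839150), Cd200r2 (44867097 to 44915840) and Cd200r3 (44943678 to 44981380). Cd200 lies 400.8 kb further on, on the minus strand (45382135 to 45409053). All are protein-coding genes. The receptors are close relatives: over the longest GENCODE coding sequences, Cd200r2 and Cd200r4 were identical at 91.3% of aligned bases, Cd200r1 and Cd200r4 at 88.4%, Cd200r1 and Cd200r2 at 86.6%, and Cd200r3 at only 71.2 to 76.2% with each of the others. The longest coding stretch that Cd200r2 and Cd200r4 share exactly is 110 bases. It spans coding positions 427 to 536 of Cd200r2 and 490 to 599 of Cd200r4. It is shown because a read inside it could be given to the wrong gene.
Cd200r2 and Cd200r4, shared coding run: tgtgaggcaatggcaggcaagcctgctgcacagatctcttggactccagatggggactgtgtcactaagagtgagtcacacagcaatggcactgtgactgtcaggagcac
Such stretches are short in total. Of the distinct stretches of 100 bases in the annotated transcripts, 0.666% of those of Cd200r2 and 0.538% of those of Cd200r4 occur in the other gene. None of those of Cd200r1, Cd200r3 or Cd200 occur in another of the 5 genes. This count misses shorter shared stretches. Cd200r1 shares an exact coding run of 88 bases with Cd200r4 and of 47 bases with Cd200r2, where a shorter read could also be given to the wrong gene.

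The start regions of 3 of the paralogs group differently from their coding parts. RefSeq start regions (GRCm38.p6, plus strand, 250 bases before to 50 after the annotated start) are printed for these 3 receptors. Cd200r1 had no entry among the start regions, so its start region could not be compared. Capitals mark matches, on either strand, to AGGTGT, the core bound by T-box factors such as T-bet and Eomes, to TGTGGT, the core bound by Runx factors, or to TGANTCA, the AP-1 site. No matches overlap.
Cd200r2 (chr16:44866847-44867146): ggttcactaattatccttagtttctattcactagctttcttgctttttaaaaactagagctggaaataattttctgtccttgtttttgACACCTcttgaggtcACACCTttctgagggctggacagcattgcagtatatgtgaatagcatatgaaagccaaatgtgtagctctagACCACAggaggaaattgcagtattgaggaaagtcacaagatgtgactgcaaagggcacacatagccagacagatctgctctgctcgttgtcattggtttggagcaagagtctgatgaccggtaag
Cd200r4 (chr16:44820478-44820777): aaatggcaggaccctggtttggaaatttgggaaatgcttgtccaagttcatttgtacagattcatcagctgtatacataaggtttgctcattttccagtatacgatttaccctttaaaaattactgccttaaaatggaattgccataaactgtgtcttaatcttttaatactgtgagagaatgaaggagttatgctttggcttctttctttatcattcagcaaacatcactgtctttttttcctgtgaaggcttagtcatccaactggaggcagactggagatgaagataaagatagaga
Cd200r3 (chr16:44943428-44943727): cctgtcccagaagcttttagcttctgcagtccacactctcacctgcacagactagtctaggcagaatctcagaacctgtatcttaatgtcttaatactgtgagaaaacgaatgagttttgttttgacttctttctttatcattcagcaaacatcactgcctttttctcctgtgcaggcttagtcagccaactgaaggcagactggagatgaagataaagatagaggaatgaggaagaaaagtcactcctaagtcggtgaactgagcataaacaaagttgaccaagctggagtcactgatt
Cd200r4 and Cd200r3 share 140 of 156 bases in 1 ungapped block (89.7%), whereas the best block between Cd200r2 and Cd200r4 is 9 bases long. The Cd200r2 window holds AGGTGT, read on the opposite strand, at 2 places, with first bases at -162 and -147 from the start, and TGTGGT at 1 place (-75). AGGTGT occurs at least once in 13.7% of 32851 RefSeq windows of this length and at least 2 times in 1.54%, TGTGGT in 16.8% and TGANTCA in 7.8%. The windows of Cd200r4 and Cd200r3 hold none of the 3 motifs. Without a window for Cd200r1, the motifs cannot be set beside the levels of all receptors, and a relation between them was not tested. The RefSeq start of Cd200r4 lies 9.0 kb inside the gene span of GENCODE, which begins further upstream.

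Cd200r1, the inhibitory receptor, was abundant in ILC1 and low in cNK. It had 2645, 3992 and 2525 counts in ILC1 pools 1 to 3 and 51, 94 and 60 counts in cNK pools 1 to 3, or 106, 136 and 90.9 CPM against 1.83, 4.27 and 2.6 CPM. The lowest ILC1 pool stood far above the highest cNK pool, and the log2 difference of ILC1 over cNK was 5.26 ± 0.38 (standard error of the edgeR fit, n = 3 per population). Cd200r2 is nearer in coding sequence to Cd200r4 (91.3% identical) than to Cd200r1 (86.6%). Its distribution was like that of Cd200r1, with 61.2, 65.0 and 51.6 CPM in ILC1 and 1.5, 0.908 and 0.911 CPM in cNK. Its log2 difference was 5.73 ± 0.29, and again no pools overlapped. Among 16144 log2 differences ordered from the ILC1 side, Cd200r2 had rank 29 and Cd200r1 rank 44.

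Cd200r4, a DAP12-coupled receptor that sits between Cd200r1 and Cd200r2 on the chromosome, was instead present in both populations. It stood at 61.8, 95.3 and 58.2 CPM in ILC1 and at 77.0, 69.4 and 57.7 CPM in cNK. The pools overlapped fully, and the log2 difference was 0.08 ± 0.24. In these bulk libraries fewer cells with a transcript and less transcript per cell cannot be told apart, for this gene or for the others.

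Cd200r3, the basophil and mast cell receptor, was near the detection limit. It had 47, 45 and 7 counts in the ILC1 pools and 7, 4 and 0 in the cNK pools, where 3 counts correspond to 0.107 to 0.136 CPM. ILC1 pools 1 and 2 stood at 1.89 and 1.54 CPM, but ILC1 pool 3 (0.252 CPM) and cNK pool 1 (0.251 CPM) were indistinguishable at 7 counts each. The gene did not pass the filter on low counts and has no fitted difference there. Without the filter its log2 difference was 3.02.

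Of the 4 genes that passed the filter, 2 (Cd200r1 and Cd200r2) were called higher in ILC1 and 0 higher in cNK, where 4.07% of all tested genes were called higher in ILC1 and 1.69% higher in cNK. DESeq2 gave the same counts of 2 and 0, where it called 7.16% of its tested genes higher in ILC1 and 4.30% higher in cNK. Every ILC1 pool exceeded every cNK pool for the same 2 genes, as for 15.0% of tested genes, and for 0 of the 4 was the reverse true, as for 9.06% of tested genes. Since the genes were proposed from this comparison, nothing is read from these counts.

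**Figure D1:**
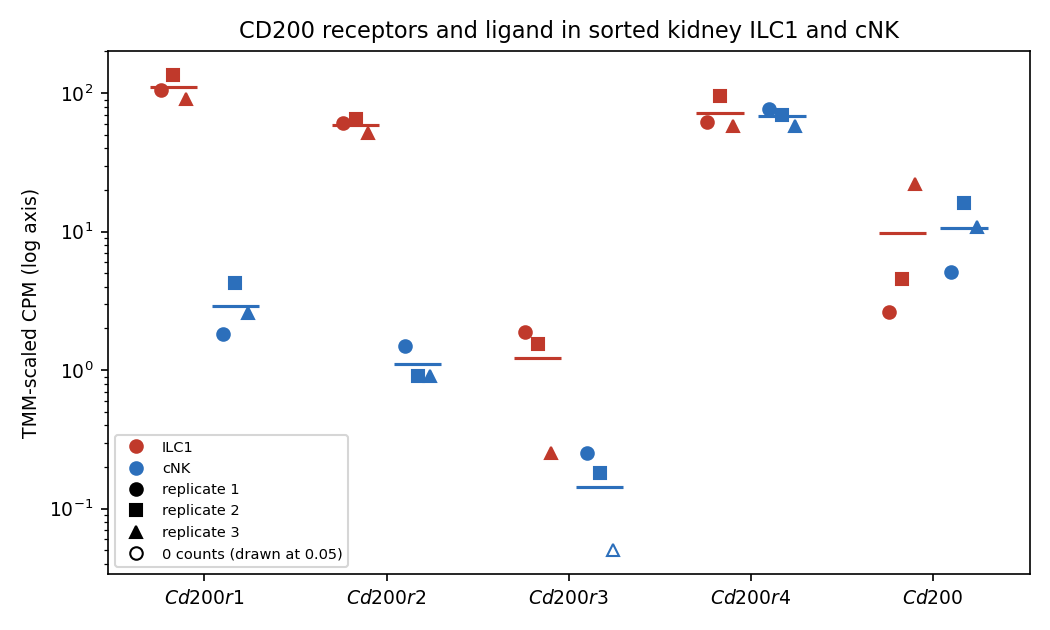
TMM-scaled CPM (log axis) of the 4 receptor genes and Cd200 in each library, with ILC1 in red, cNK in blue, 1 symbol per pool and bars at the mean of 3 pools. Cd200r1 and Cd200r2 separate the populations, Cd200r4 lies between 57.7 and 95.3 CPM in all 6 libraries, and Cd200 spreads widely within each population; the open symbol is a library with 0 counts of Cd200r3.

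Scaled by exon length, the 3 abundant receptors were at nearly the same level in ILC1. Cd200r4 reached 35.1 ± 10 CPM per kilobase (SD, n = 3), Cd200r2 33.9 ± 3.94 and Cd200r1 33.2 ± 6.91, which do not differ beyond their spread. Cd200 followed at 2.92 ± 3.20 and Cd200r3 at 0.205 ± 0.144 CPM per kilobase. In cNK the order on the same scale was Cd200r4 at 33.3 ± 4.75, Cd200 at 3.21 ± 1.64, Cd200r1 at 0.866 ± 0.372, Cd200r2 at 0.633 ± 0.196 and Cd200r3 at 0.0241 ± 0.0216. There Cd200r1 and Cd200r2 are neighbours within their spread. The annotated exon lengths behind these values run from 1750 bases for Cd200r2 to 5984 bases for Cd200r3, and other annotated isoforms would change them.

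As a share of the length-scaled signal of the 4 receptors, Cd200r4 made up 96.3, 94.9 and 95.6% in cNK pools 1 to 3. In ILC1 pools 1 to 3 it made up 31.1, 37.4 and 33.4%, with Cd200r1 at 32.6, 32.7 and 31.9% and Cd200r2 at 36.0, 29.8 and 34.6%. In cNK pools 1 to 3 Cd200r1 took 1.4, 3.57 and 2.63% and Cd200r2 2.2, 1.45 and 1.76%, so the minor receptors varied more among the cNK pools, relative to their level, than among the ILC1 pools. The ratio of Cd200r1 to Cd200r4 within a library, which does not depend on the scaling between libraries, was 1.72, 1.43 and 1.56 in ILC1 and 0.0237, 0.0615 and 0.0451 in cNK (CPM ratio). The summed level of the receptors was 102 ± 20.3 CPM per kilobase in ILC1 and 34.8 ± 4.86 in cNK.

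**Figure D2:**
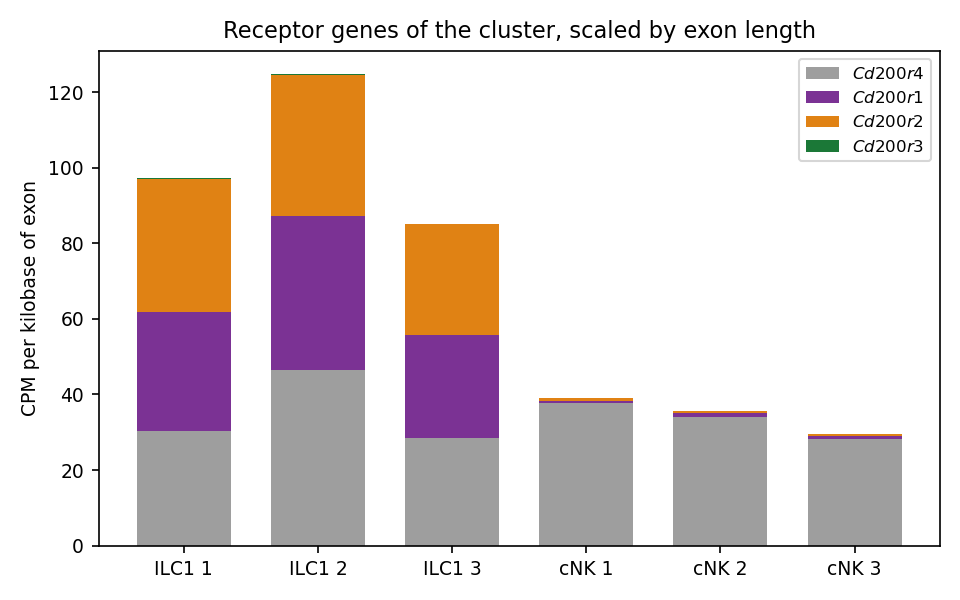
CPM per kilobase of exon of the 4 receptor genes, stacked for each of the 6 libraries. Cd200r4 (grey) has a similar height throughout, at 28.2 to 46.6 CPM per kilobase, and Cd200r1 and Cd200r2 add to it in the 3 ILC1 libraries.

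Cd200, the ligand, varied more within the populations than between them. It reached 2.61, 4.58 and 21.9 CPM in ILC1 pools 1 to 3 and at 5.12, 16 and 10.8 CPM in cNK pools 1 to 3, a log2 difference of -0.13 ± 0.81. ILC1 pool 3 held 609 counts against 65 and 134 in the other ILC1 pools, and without it the log2 difference was -1.56. The 3 libraries with the most Cd200 were also the 3 with the largest summed share of kidney epithelial markers. Below them the order differed, since ILC1 pool 2 had more Cd200 than ILC1 pool 1 but a smaller share. Kidney epithelial markers such as Umod, Kap and Slc12a1 took 0.0876, 0.0278 and 0.280% of the counts of ILC1 pools 1 to 3 and 0.0963, 0.300 and 0.271% in cNK pools 1 to 3. Of the 10 kidney epithelial markers tested, 0 were called in either direction by edgeR, against 5.76% of all tested genes. At an unadjusted p under 0.05 there were 0 toward ILC1 and 3 toward cNK.

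Endothelial markers, whose cells express CD200, gave smaller shares, at 0.0123, 0.00818 and 0.0149% in ILC1 and 0.00957, 0.0108 and 0.00938% in cNK. Pecam1 and Ehd3, the members of this list with the highest means, made up most of these shares and did not follow Cd200. The other 7 tested members (Plvap, Emcn, Flt1, Tek, Kdr, Egfl7 and Cdh5) were each highest in ILC1 pool 3 among the ILC1 pools and in cNK pool 2 among the cNK pools, as was Cd200. Plvap, a gene of fenestrated endothelium, stood at 4.26, 2.22 and 22.5 CPM in ILC1 and 7.56, 39.4 and 18.0 CPM in cNK, and Emcn, which encodes the endothelial sialomucin endomucin, at 0.642, 6.42 and 21.02 CPM and 1.68, 20.5 and 10.06 CPM. Macrophage, monocyte and dendritic cell markers reached 0.595, 0.491 and 0.997% in ILC1 but only 0.218 to 0.254% in cNK, where Cd200 was not lower. In cNK this list was led by Ly6c2 (mean 1183 CPM, 429 in ILC1) and Ccr2 (363 CPM, 475 in ILC1). Lyz2 averaged 55.7 CPM in cNK against 774 in ILC1. The members thus differed in direction, and their summed share is not a count of myeloid cells. The part of these cells in the Cd200 values was not tested.

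**Figure D3:**
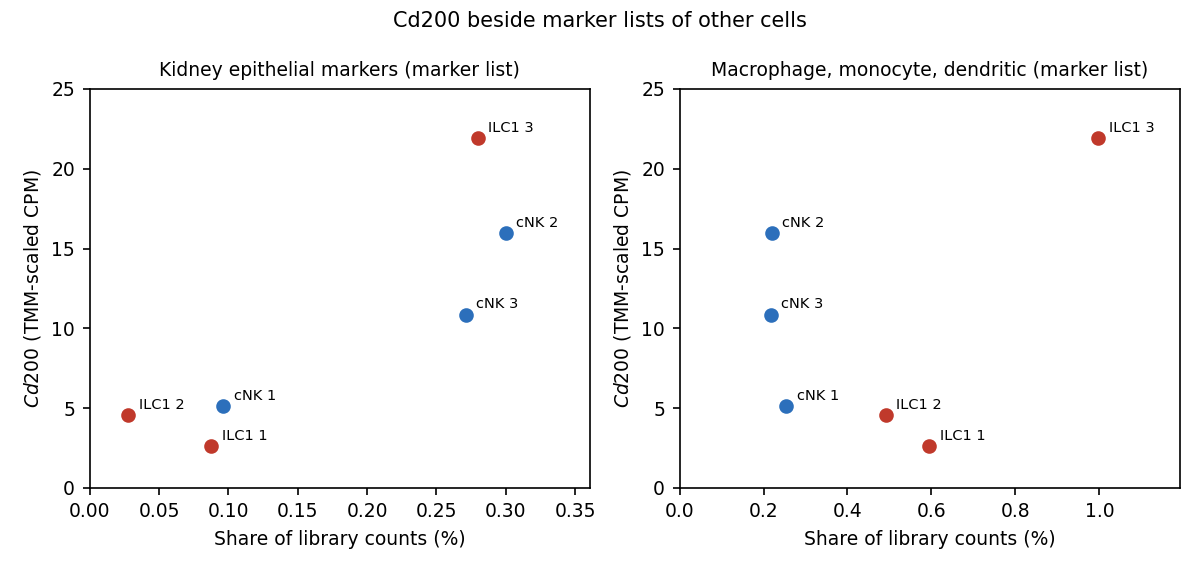
Cd200 (TMM-scaled CPM) against the share of counts of kidney epithelial markers (left) and of macrophage, monocyte and dendritic cell markers (right), 1 point per library, with ILC1 in red and cNK in blue. The 3 libraries with 10.8 CPM of Cd200 or more are those with at least 0.271% epithelial counts, while 2 of them are among the lowest in myeloid counts.

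The same markers were set beside the receptors, since macrophages express CD200R1. ILC1 pool 3 had the highest myeloid share (0.997%) and the lowest Cd200r1 of the ILC1 pools (90.9 CPM), and ILC1 pool 2 the lowest share (0.491%) and the highest Cd200r1 (136 CPM). Of 23 myeloid markers tested, 8 were called higher in ILC1 and 1 in cNK, against 4.07 and 1.69% of all tested genes. The members of highest level were Cd74 and H2-Ab1, of MHC class II presentation, which were called higher in ILC1, and Ly6c2, which was called higher in cNK. The part of these cells in the receptor values was not tested.

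Markers of other cells that could carry CD200 receptors or CD200 were low. Basophil and mast cell markers, with 9 of 13 analysed, made up 0.00479 to 0.0110% of counts in ILC1 and 0.00335 to 0.00581% in cNK. Of these 7 could be tested and 1 was called, where 5.76% of all tested genes were called. The called gene was Il6ra, an interleukin-6 receptor chain that other leukocytes also carry, at 4.98, 1.4 and 5.36 CPM in ILC1 and 0.322, 0.363 and 0.781 CPM in cNK (edgeR adjusted p = 0.0464). Cpa3, Ms4a2, Fcer1a and Mcpt8, the markers most particular to these cells, were each at 5.05 CPM or below in every library. Cpa3, a mast cell protease gene, had 25, 42 and 30 counts in ILC1 and 141, 104 and 42 in cNK. Ms4a2 and Fcer1a, which encode chains of the high-affinity IgE receptor, had 25, 3 and 0 and 4, 25 and 0 counts in ILC1. In cNK they had 17, 7 and 0 and 15, 5 and 12 counts. The basophil protease gene Mcpt8 had no counts in ILC1 pools 1 and 3 and stood at 0.0683 CPM in ILC1 pool 2, against 0.358, 0.681 and 0.0868 CPM in cNK pools 1 to 3. The list was led in level by Kit, Gata2 and Hdc, which other cells also express. ILC2 markers made up 0.0116 to 0.0138% in ILC1 and 0.00568 to 0.00977% in cNK, mostly from Gata3, and the ILC2 receptor gene Il1rl1 stayed at 1.83 CPM or below in all libraries. ILC3 markers made up at most 0.000782% of counts in ILC1 and 0.000217% in cNK, with Il22 at 0 counts in cNK.

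Of the ILC2 markers, 1 of 5 tested was called higher in ILC1. For this and the counts that follow, edgeR called 4.07% of all tested genes higher in ILC1 and 1.69% higher in cNK. T cell markers, with 1 of 11 called higher in ILC1, made up 0.0729 to 0.105% in ILC1 and 0.0405 to 0.0473% in cNK, mainly from the T-cell receptor constant genes Trbc1 and Trbc2. B cell markers, with 2 of 7 called higher in ILC1, made up 0.0702 to 0.0747% and 0.0138 to 0.0201%, mainly from Ighm. Neutrophil markers made up at most 0.00241% in ILC1 and 0.00591% in cNK, and edgeR called 0 of 4 tested, with 0 in either direction at an unadjusted p under 0.05. Endothelial markers gave 0 of 9 calls, with 1 toward ILC1 and 0 toward cNK at an unadjusted p under 0.05. Their part in the receptor values was not tested.

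The genes whose profile over the 6 libraries was nearest to that of each CD200 gene were sought among 8202 named genes with a mean of at least 10 CPM. The measure was the Euclidean distance between mean-centred log2(CPM + 0.5) profiles. For Cd200r1 they were Gpr34, a lysophosphatidylserine receptor (distance 0.49), the keratin gene Krt83 (0.57) and the chemokine receptor Ccr8 (0.66). For Cd200r2 they were Adgrg3, an adhesion G protein-coupled receptor (0.67), Ccr8 (0.72) and Inpp4b, a phosphoinositide phosphatase (0.79). Gpr34, for example, stood at 64.0, 87.2 and 63.2 CPM in ILC1 and 1.36, 2.59 and 2.30 CPM in cNK. All these profiles are set mainly by the gap between the populations. Cd200r3 was too low for such a comparison.

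The level profile of Cd200r4 was nearest to those of Orc4, a subunit of the origin recognition complex (0.19), Atic, an enzyme of purine synthesis (0.20), and Cryzl1 (0.21), genes that likewise stood at similar levels in both populations. That of Cd200 was nearest to Scin, which encodes an actin-severing protein (0.50), Rbm47, which encodes an RNA-binding protein (0.54), and Tmem86a (0.55). Scin stood at 4.30, 4.85 and 32.3 CPM in ILC1 and at 6.41, 24.7 and 13.4 CPM in cNK. It was picked for its nearness to Cd200, so being high in the same 3 libraries is not a separate result.

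Around the cluster, genes called higher in ILC1 alternated with genes that gave no call. Within 1 Mb of either end of the span from Cd200r1 to Cd200, 32 further genes were in the table and 28 were tested. Of these, edgeR called 6 higher in ILC1 and 0 higher in cNK, or 10 and 0 at an unadjusted p under 0.05, against 4.07 and 1.69% of all tested genes. DESeq2 called 8 and 0. The median log2 difference of the 28 genes was 0.26, with Gm19142 at its fitted value or at its bound, against 0.01 for all tested genes. The count was 3 without ILC1 pool 2, where Gcsam, Gm19142 and Gm5063 were not called (edgeR adjusted p = 0.0575, 0.0596 and 0.0855), and 1 gene, Atp6v1a, named for this call, was called higher in cNK without ILC1 pool 3 (adjusted p = 0.0359).

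Btla, an inhibitory receptor of lymphocytes that binds HVEM, lies between the receptors and Cd200, 124.5 kb before Cd200 (45224315 to 45257670). It stood at 18.9, 14.6 and 17.8 CPM in ILC1 and at 0.466, 0.636 and 0.781 CPM in cNK, with no overlap. Its log2 difference was 4.76 ± 0.30 (edgeR adjusted p = 5.69e-04), and it was called under every alternative run, with adjusted p up to 0.00663 when 1 library was left out. Gcsam, which encodes a signalling adaptor of germinal centre B cells and lies 201.3 kb beyond Cd200, had 247, 329 and 441 counts in ILC1 and 0, 2 and 12 in cNK (12.3 ± 3.13 against 0.204 ± 0.278 CPM, edgeR adjusted p = 0.0169, up to 0.0789 without 1 library). Ccdc80, which encodes a secreted matrix protein and lies 112.0 kb beyond Cd200r3, was lower in level at 3.25 ± 0.368 against 0.888 ± 0.113 CPM (log2 difference 1.86 ± 0.33, edgeR adjusted p = 0.0200, up to 0.105 without 1 library).

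The other 3 calls were processed pseudogenes inside the receptor cluster. Gm17928 (44892296 to 44892970, plus strand) lies within an intron of Cd200r2 and shares no exon base with it. It had 321, 382 and 279 counts in ILC1 and 4, 5 and 3 in cNK (log2 difference 6.14 ± 0.36, edgeR adjusted p = 5.68e-04), which in the ILC1 pools is 21, 20.1 and 19.5% of the counts of Cd200r2. Being on the same strand, its reads and unspliced reads of Cd200r2 cannot be told apart. Gm5063 and Gm19142 lie on the minus strand in the gap between Cd200r1 and Cd200r4, 5.7 and 8.6 kb after the end of Cd200r1. Gm5063 had 42, 57 and 45 counts in ILC1 and 0, 3 and 0 in cNK (edgeR adjusted p = 0.0257, up to 0.118 without 1 library). Gm19142 had 23, 39 and 27 counts in ILC1 and none in cNK, which at a floor of 3 counts per library is at least 7.9-fold higher in ILC1 (edgeR adjusted p = 0.0107, up to 0.0596 without 1 library). The sources used here do not say whether counting used strand.

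Most other neighbours gave no call. Gtpbp8 and Nepro, 19.4 and 28.5 kb before Cd200r1, had log2 differences of 0.50 ± 0.27 and 0.97 ± 0.29 (edgeR adjusted p = 0.385 and 0.120), and Boc, 206.8 kb before it, -0.03 ± 1.12. Beyond Cd200, Gm17783 was too low to test and Abhd10 had a log2 difference of 0.13 ± 0.26. Slc35a5 and Atg3, between Cd200r3 and Btla, had 0.62 ± 0.23 and -0.03 ± 0.23. The NK receptor gene Cd96, 626.6 kb beyond Cd200, averaged 273 ± 49.7 CPM in ILC1 against 144 ± 26.9 in cNK without a call (edgeR adjusted p = 0.0671), and was called by DESeq2 (0.00255), with the pool number as a block (0.0425) and without ILC1 pool 3 (0.0427).

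**Figure D4:**
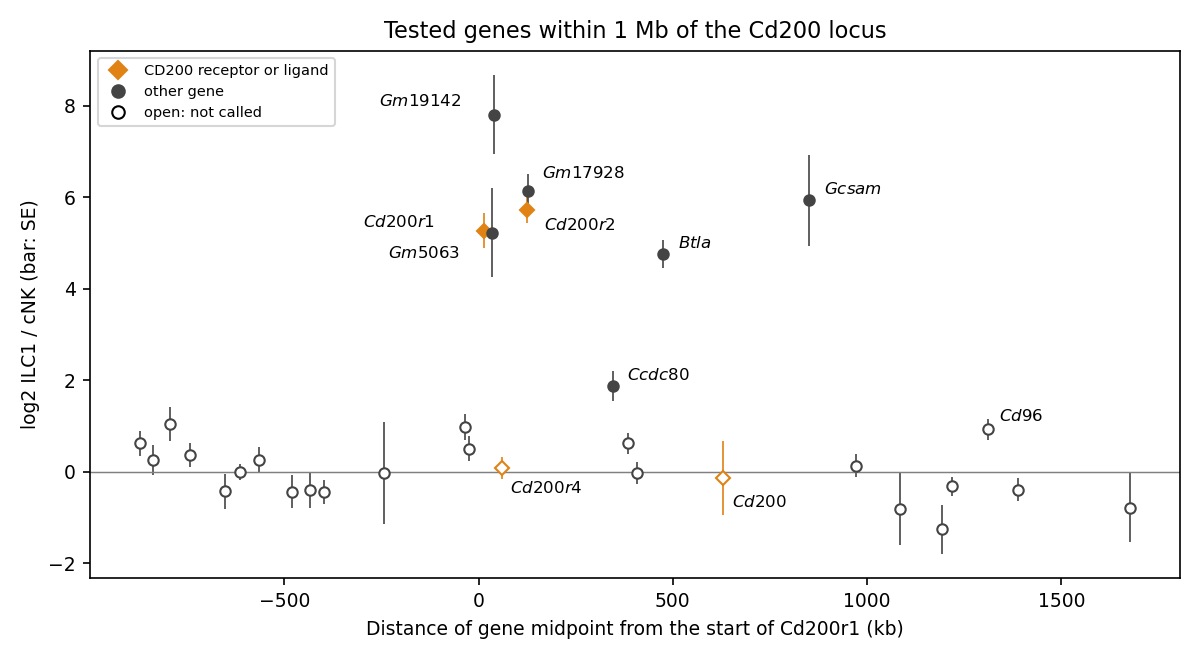
Log2 difference of ILC1 over cNK (bar: standard error of the edgeR fit) for the tested genes within 1 Mb of the cluster, by the distance of the gene's midpoint from the start of Cd200r1 in kilobases. Filled symbols were called higher in ILC1; Cd200r4 (0.08) and Cd200 (-0.13) lie near 0 among called genes at 1.86 and above. The fitted value of Gm19142 rests on 0 counts in cNK.

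The signalling partners of CD200R1 were present in both populations. Of 8 tested, edgeR called 1 higher in ILC1 and 0 higher in cNK (2 and 0 at an unadjusted p under 0.05), against 4.07 and 1.69% of all tested genes. DESeq2 called 2 (Dok1 and Dok3) and 0, against 7.16 and 4.30% of its tested genes. The median log2 difference of the 8 genes was 0.37. Dok2, the adaptor that CD200R1 recruits first, stood at 390, 432 and 270 CPM in ILC1 and at 502, 353 and 362 CPM in cNK, with overlapping pools (log2 difference -0.15 ± 0.25, edgeR adjusted p = 0.765). Dok1 was higher in ILC1, at 26.2, 27.7 and 19.2 against 13.8, 11.7 and 12.5 CPM (log2 difference 0.94 ± 0.21), at the edge of the threshold. Its edgeR adjusted p was 0.0494, and it was 0.0662 without the filter and up to 0.227 without 1 library, being lost without any library but ILC1 pool 3. Rasa1 and Inpp5d, which encodes SHIP-1, had log2 differences of 0.57 ± 0.27 and 0.41 ± 0.42 and no call (edgeR adjusted p = 0.334 and 0.644).

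The adaptors through which the activating paralogs signal were abundant in both. Tyrobp, which encodes DAP12, stood at 667, 1294 and 859 CPM in ILC1 and at 1603, 2251 and 2016 CPM in cNK. No pools overlapped, but the log2 difference of -1.06 ± 0.29 was not called (edgeR adjusted p = 0.100). It was called lower in ILC1 by DESeq2 (0.00576), with the pool number as a block (0.0214) and without ILC1 pool 2 (0.0499). Hcst, which encodes DAP10, and Fcer1g, another activating adaptor, had -0.20 ± 0.28 and -0.57 ± 0.24, without a call. Of 12 genes of these adaptors and of proximal signalling, edgeR called 0 higher in ILC1 and 1 higher in cNK, against 4.07 and 1.69% of all tested genes. At an unadjusted p under 0.05 the counts were 3 and 4, and the median log2 difference was -0.10. DESeq2 called 1 (Plcg1) and 3, against 7.16 and 4.30% of its tested genes, and the fit with the pool number as a block 1 and 2. The called gene was Cd247, which encodes the CD3 zeta chain, at 41.2, 49.9 and 35.2 CPM in ILC1 against 259, 205 and 225 CPM in cNK (log2 difference -2.45 ± 0.21, edgeR adjusted p = 0.00147). Without ILC1 pool 3 Plcg1 was called higher in ILC1 (adjusted p = 0.0295).

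Other receptors that restrain cells or come as inhibitory and activating pairs, most of them immunoglobulin-type, were also tested with some ligands. The list also holds Clec12a, a C-type lectin receptor, which was called higher in ILC1 (log2 difference 3.30 ± 0.42). Of 20 genes, 11 were called higher in ILC1 and 2 higher in cNK, against 4.07 and 1.69% of all tested genes, with a median log2 difference of 2.84 (14 and 3 at an unadjusted p under 0.05, and 14 and 3 by DESeq2, against 7.16 and 4.30% of its tested genes). The list was chosen with earlier results of these data known, so nothing is read from these counts. Btla is counted both here and among the neighbours. After Btla, the largest differences toward ILC1 were in the paired receptors Pira2 (3.95 ± 0.69), Pirb (3.95 ± 0.52) and Cd300a (3.50 ± 0.57). These 3 were highest in ILC1 pool 3 and lowest in ILC1 pool 2, as was the myeloid share, while Cd200r1 had the opposite order. Pira2 and Pirb belong to a family of near-identical genes, whose counts are uncertain where reads fit several members. Pirb stood at 24.6, 9.39 and 34.0 CPM and Cd300a at 14.1, 9.97 and 40.7 CPM in pools 1 to 3, where the myeloid share was 0.595, 0.491 and 0.997%. The part of myeloid cells in these differences was not tested. Toward cNK, the inhibitory receptors Cd300lf (-3.57 ± 0.45) and Lair1 (-2.53 ± 0.41) were called, at 36.8, 23.6 and 31.2 CPM for Cd300lf in cNK against 3.45, 1.13 and 3.17 CPM in ILC1.

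The edgeR adjusted p was 0.0199 for Pira2 (0.0649 with the pool number as a block), 0.00709 for Pirb, 0.0155 for Cd300a, 0.00644 for Cd300lf and 0.0152 for Lair1. With 1 library left out it rose to at most 0.0813, 0.0534, 0.0953, 0.0382 and 0.0585 in the same order, so that of these 5 genes Cd300lf kept its call in every case. Leaving out cNK pool 1, 2 or 3 changed the list's calls toward ILC1 to 6, 5 or 3. Leaving out ILC1 pool 1 or 2, or cNK pool 1 or 3, left 1 call toward cNK. Cd47, the ligand of SIRP-alpha, and Tnfrsf14, the HVEM ligand of BTLA, are members without a call (edgeR adjusted p = 0.161 and 0.811).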

How the data were processed

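RNA was sequenced from 3 pools each of ILC1 and cNK cells sorted from mouse kidney. The authors deposited raw read counts per gene, not normalized. STAR 2.6.1, Trimmomatic 0.38, DESeq, DESeq2 1.30.0, R 4.03 and the build GRCm38 are named, without further detail, in the submitters' processing notes. The sources used here do not give the counting program, its annotation or its handling of strand and of reads matching several genes, so counts of the near-identical receptors are uncertain where they share sequence.

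Counts were tested with edgeR 4.0.16 in R 4.3.3 (filterByExpr, TMM, robust quasi-likelihood fit on population, Benjamini-Hochberg adjustment over 16144 genes, threshold 0.05). Standard errors come from the F statistic. Alternatives were DESeq2 1.42.0, other size factors, other filters, a pool block and leaving out libraries. Positions and exon lengths come from GENCODE M21, which matched 23798 of 23841 identifiers, and start regions from RefSeq, where 4 of the 5 genes matched. Sequences were aligned with Biopython 1.88. An unnamed last entry without counts was left out, and the deposited means and ranked gene lists were not used.

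The genes, lists, motifs and rules for naming genes were chosen with earlier results of these data known. Named were the 5 genes, signalling genes with a call and 7 core partners, up to 4 called receptors per direction, called neighbours and the 3 nearest on each side, up to 3 markers per list by level, and the 3 nearest profiles. Other genes, such as Mcpt8, Ms4a2, Fcer1a, Cpa3, Il6ra, Emcn and other endothelial markers, Il1rl1, Dok3, Plcg1, Atp6v1a, Cd96, Slc35a5, Atg3, Cd47 and Tnfrsf14, were named after their values were seen. So were Slc34a1, Lrp2, Ccr2, Lyz2 and Clec12a.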

Additional observations from a re-analysis of the deposited data

How the results depend on the processing

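Over 13 alternatives, 2 of the CD200 genes (Cd200r1 and Cd200r2) were counted higher in ILC1 and 0 higher in cNK. The log2 difference of Cd200r1 was 4.95 to 5.65 when 1 library was left out, and 5.77 when ILC1 pool 3 and cNK pool 2 were both left out. That of Cd200 ran from -1.56 to 0.32 when 1 library was left out. Cd200r3 had a log2 difference of 3.02 without the filter, of 2.47 to 3.64 where leaving out 1 library let it pass, and of 3.64 without both of those pools. Over all genes, calls toward ILC1 numbered 214 to 695 and calls toward cNK 93 to 672 without 1 library, 1153 and 693 by DESeq2, and 431 were higher in cNK without both pools. Called genes of the 3 lists of partners and other receptors numbered 3 to 13 in ILC1 and 2 to 4 in cNK without 1 library, and DESeq2 called 6 in cNK. Called neighbours numbered 3 to 7 in ILC1 and 0 to 1 in cNK without 1 library. The cause of these changes was not tested.

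Pool numbers were not shown to pair the libraries: same-numbered pools correlated at 0.628, -0.115 and 0.0713 in their deviations from the population means, and ILC1 pool 2 correlated best with cNK pool 3 (0.101). With the pool number as a replicate block, edgeR called 1107 genes toward ILC1 and 675 toward cNK, and the log2 differences of Cd200r1, Cd200r2, Cd200r4 and Cd200 were 5.31, 5.75, 0.05 and -0.60. With 3 libraries per population and few counts, differences in Cd200r3 were not resolved at this depth.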
